A study of Mus musculus with 6 samples.

Results

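The genes described here are 10 mouse genes for alarmins, stefin A proteins and related antimicrobial proteins of inflamed skin. They are S100a8, S100a9, S100a7a, Stfa1, Stfa2, Stfa2l1, Stfa3, Lcn2, Slpi and Defb3. Their members on the array were every non-control probe that carries one of these names, with probes of the same gene kept apart, which gave 13 probes of 56605 for 10 of 37074 gene names on the array. Of these, 12 were well above background on all 6 arrays and were tested among 29726 probes, and the other, a Slpi probe, was well above background on 0 arrays.

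RNA of skin tumours from male mice was hybridised to 6 one-colour Agilent arrays, 3 from tumours labelled P2ry6-/- and 3 from tumours labelled P2ry6+/+. P2ry6 encodes a receptor for uracil nucleotides. Both genotypes had the same two-stage carcinogenesis. The shaved back skin of 12 mice per genotype received 195 nmol of DMBA, a mutagen, and from a week later 16 nmol of TPA, a phorbol ester that promotes tumours, until week 22. The labels number the tumours but do not say whether they came from separate mice, and they do not describe how the P2ry6 allele was made. The p-values therefore cover the spread among these samples and may be technical. Uninvolved or untreated skin was not analysed here. In bulk samples, a change in the number of cells of a type and a change in RNA per cell cannot be told apart.

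Alarmins are proteins that stressed or damaged cells release and that alert immune cells. S100A8 and S100A9 pair into calprotectin, which withholds zinc and manganese from microbes and can act on the receptors TLR4 and RAGE. Inflamed or wounded keratinocytes make them, and neutrophils carry them in large amounts. Stefins A are small inhibitors inside the cell of cysteine cathepsins, the papain-like proteases of the lysosome. Rodents carry an expanded row of stefin A genes, which are active in stratified epithelium and in neutrophils. LCN2 binds bacterial iron carriers, SLPI inhibits serine proteases such as neutrophil elastase, and DEFB3 is a beta-defensin, a small peptide that kills microbes.

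The region at the gene start is shown for the 4 stefin A members because they lie in 1 gene row on chromosome 16 and all had higher means in labelled P2ry6-/- tumours. Each run covers 250 bases before to 50 bases after the annotated start, from RefSeq on build GRCm38.p6, in the gene's own direction. Stfa1 lies at chr16:36276898-36277197 on the plus strand, Stfa2 at chr16:36408314-36408613 on the minus strand, Stfa2l1 at chr16:36156561-36156860 on the plus strand and Stfa3 at chr16:36455343-36455642 on the minus strand. Capitals mark the 8 runs of at least 8 bases that all 4 regions share in the same order.
Stfa1: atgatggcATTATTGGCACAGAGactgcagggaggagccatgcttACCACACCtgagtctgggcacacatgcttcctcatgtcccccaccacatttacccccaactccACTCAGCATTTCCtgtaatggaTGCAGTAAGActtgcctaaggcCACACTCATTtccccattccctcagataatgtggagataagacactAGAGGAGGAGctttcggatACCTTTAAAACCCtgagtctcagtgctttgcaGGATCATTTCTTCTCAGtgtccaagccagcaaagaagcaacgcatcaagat
Stfa2: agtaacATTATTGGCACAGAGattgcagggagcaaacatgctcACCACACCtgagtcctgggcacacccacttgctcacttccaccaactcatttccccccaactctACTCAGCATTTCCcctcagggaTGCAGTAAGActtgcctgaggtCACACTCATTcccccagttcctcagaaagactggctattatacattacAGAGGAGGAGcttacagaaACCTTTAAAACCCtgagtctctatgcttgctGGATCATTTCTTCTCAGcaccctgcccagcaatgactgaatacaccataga
Stfa2l1: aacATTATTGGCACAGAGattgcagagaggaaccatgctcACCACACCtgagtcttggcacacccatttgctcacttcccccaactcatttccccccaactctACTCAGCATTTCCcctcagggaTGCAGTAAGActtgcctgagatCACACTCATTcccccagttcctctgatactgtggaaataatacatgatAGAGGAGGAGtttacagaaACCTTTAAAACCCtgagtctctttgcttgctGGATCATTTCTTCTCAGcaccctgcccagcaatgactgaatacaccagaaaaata
Stfa3: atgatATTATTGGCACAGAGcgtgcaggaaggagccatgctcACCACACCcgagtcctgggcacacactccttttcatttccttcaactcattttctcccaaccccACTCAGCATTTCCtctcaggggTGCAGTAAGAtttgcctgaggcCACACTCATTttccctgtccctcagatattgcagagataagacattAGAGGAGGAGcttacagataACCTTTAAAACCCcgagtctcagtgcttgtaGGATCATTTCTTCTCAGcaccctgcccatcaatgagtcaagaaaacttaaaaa
An alignment of the 4 regions had 308 columns, of which 207 held the same base in all 4. Stfa2 and Stfa2l1 were the most alike pair, with 90.5% of their aligned columns identical, and the other pairs had between 77.2% and 80.6%. One shared run, ACCTTTAAAACCC, begins 32 to 36 bases before the start in each gene. It was found on either strand in 9 of 32851 mouse promoters of the same length, or 0.0274%, and all 9 belong to genes of this row, the other 5 being Csta3, Cstdc3, Cstdc4, Cstdc5 and Gm7260. Another shared run, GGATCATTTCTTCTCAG, spans the annotated start itself and was found in 6 promoters, or 0.0183%, those of the 4 members, Csta3 and Cstdc5. Both runs were picked because these genes share them.

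The start regions of S100a8 and S100a9 are shown because their levels followed each other most closely among the 3 S100 members. S100a8 lies at chr3:90668821-90669120 on the plus strand and S100a9 at chr3:90695672-90695971 on the minus strand, from the same RefSeq table and build. Capitals mark the TATA box letters TATAAA.
S100a8: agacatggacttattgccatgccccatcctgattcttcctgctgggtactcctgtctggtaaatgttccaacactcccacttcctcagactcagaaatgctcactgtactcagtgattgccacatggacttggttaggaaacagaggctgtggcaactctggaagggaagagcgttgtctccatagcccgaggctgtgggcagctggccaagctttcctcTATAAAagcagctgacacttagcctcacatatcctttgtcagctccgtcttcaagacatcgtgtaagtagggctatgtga
S100a9: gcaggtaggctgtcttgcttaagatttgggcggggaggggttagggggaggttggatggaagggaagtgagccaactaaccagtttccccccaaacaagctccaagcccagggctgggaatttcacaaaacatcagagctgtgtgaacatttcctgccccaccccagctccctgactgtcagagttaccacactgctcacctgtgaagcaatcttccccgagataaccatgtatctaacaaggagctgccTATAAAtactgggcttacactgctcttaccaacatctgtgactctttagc
TATAAA begins 30 bases before the S100a8 start and at position 1 of the S100a9 start, and 13.6% of all promoters hold it on either strand. All 10 genes had a region in the table. The letters TGANTCA, with N for any base, were used as a loose pattern for AP-1, the factors that TPA activates. Not every sequence that the pattern allows need bind them. It was found on either strand in 1 of the 10 regions, that of Stfa3, and in 7.81% of all promoters. The C/EBP letters TTGCNNAA were found in 5 of the 10, those of S100a9, Stfa1, Lcn2, Slpi and Defb3, against 10.8% of all promoters. The STAT letters TTCNNNGAA were found in 1 of the 10, that of S100a7a, against 8.3%, and the NF-kB motif in 0 of the 10, against 5.8%. A match describes the letters in this window only and was not tested as a binding site.

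Values below are log2 signals minus the array's own 75th percentile, so a level of 0 lies at that percentile, and differences are labelled P2ry6-/- minus labelled P2ry6+/+. Levels of different probes are not comparable with each other. Probe positions are given on build mm9, as the files state them. Across the 12 tested probes, 0 passed limma's adjusted p threshold of 0.05, against 0.145% of all probes tested, and 6 had an unadjusted p under 0.05, against 12.7%. The labelled P2ry6-/- mean was higher for 7 of the 12, against 52.9% of all probes, and lower for 5. In 6 of the 12, every labelled P2ry6-/- tumour lay above every labelled P2ry6+/+ tumour, against 12% of all probes, and the opposite order was found in 0 of the 12, against 6.91%. These 6 were S100a8, S100a9 and the 4 stefin A genes. The median difference of the 12 probes was 0.56, and that of all probes was 0.02. The smallest two-sided p that an exact permutation test allows with 3 tumours in each group is 0.1.

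**Figure D1:**
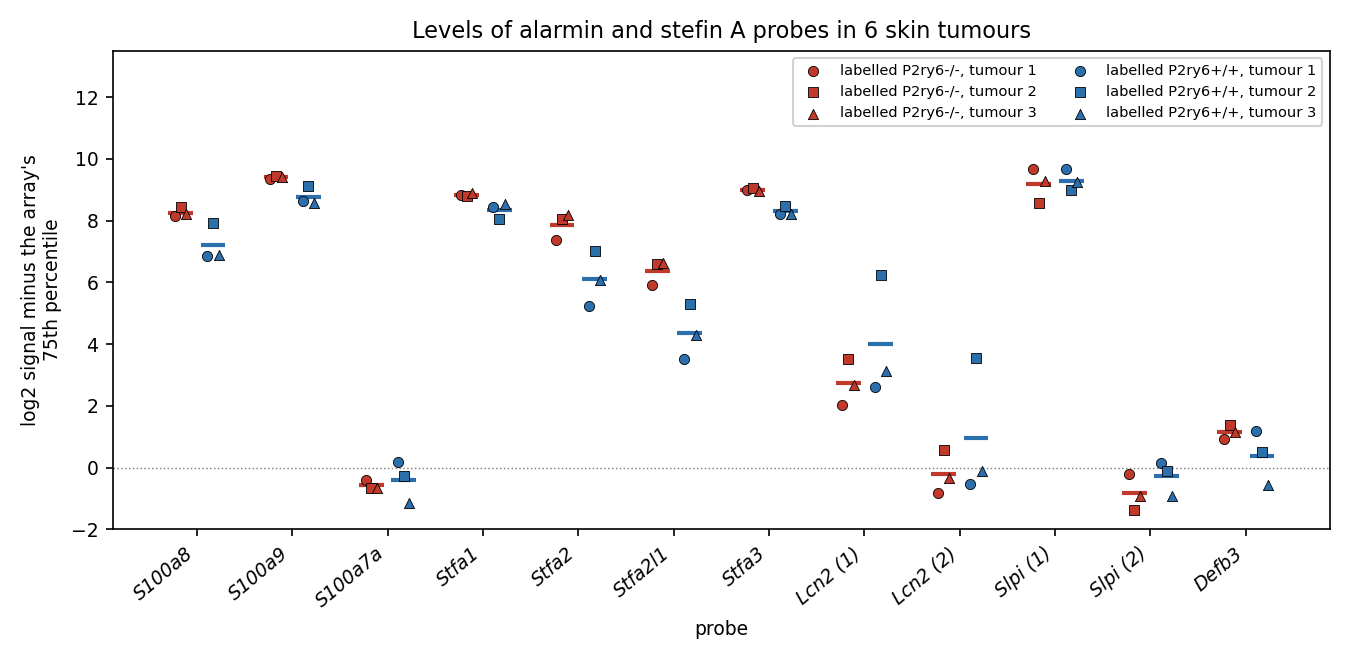
Level of each of the 12 tested probes (vertical axis, log2 signal minus the array's 75th percentile) in each tumour, with labelled P2ry6-/- tumours in red on the left and labelled P2ry6+/+ tumours in blue on the right of each probe; horizontal bars are means of 3 tumours. S100a8, S100a9 and the 4 stefin A probes do not overlap between the groups, and tumour 2 of the labelled P2ry6+/+ group stands above the others on both Lcn2 probes.

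P2ry6 itself was read by a pair of probes, and neither was lower under the label P2ry6-/-. One read 0.57, 0.70 and 0.45 in labelled P2ry6-/- tumours 1, 2 and 3, against 0.38, 0.33 and -0.21 in labelled P2ry6+/+ tumours 1, 2 and 3. Its difference was 0.41 ± 0.20 (SE, n = 3 each, exact permutation p = 0.1), and that of the other probe was 0.54 ± 0.24 (SE, n = 3 each, exact permutation p = 0.2). The genotype labels were therefore not borne out by the targeted transcript, and whether either probe lies outside the disrupted part of the gene is not stated in the labels or files. All 6 arrays lay on 1 slide with 1 scan time and had 54.2% to 59.4% of spots well above background. Slide rows were 2, 3 and 3 for labelled P2ry6-/- tumours 1, 2 and 3, and 1, 1 and 2 for labelled P2ry6+/+ tumours 1, 2 and 3, so that row 2 alone holds both genotypes.

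Both calprotectin genes had higher means in labelled P2ry6-/- tumours, and neither passed the adjusted threshold. The S100a8 probe (A_51_P256827, chr3:90473778-90473837) read 8.14, 8.44 and 8.20 in labelled P2ry6-/- tumours 1, 2 and 3, against 6.86, 7.92 and 6.89 in labelled P2ry6+/+ tumours 1, 2 and 3. All labelled P2ry6-/- tumours were high, tumour 2 of the labelled P2ry6+/+ group came within 0.22 of the lowest of them, and its other 2 tumours were low. The mean was 2.06-fold higher in labelled P2ry6-/- tumours, a difference of 1.04 ± 0.31 (SE, n = 3 each) with a 95% interval of 0.32 to 1.76 and a limma adjusted p of 0.271. Without labelled P2ry6+/+ tumour 2 the difference was 1.39 and passed the threshold, with a limma adjusted p of 0.0404, in a fit where 178 probes passed in all. The other alternatives, including leaving out any other tumour, gave a difference of at least 0.80 and did not pass.

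S100a9, the partner chain of calprotectin, was read by a probe at chr3:90496573-90496632. Its level was 9.36, 9.43 and 9.42 in labelled P2ry6-/- tumours 1, 2 and 3, against 8.64, 9.11 and 8.57 in labelled P2ry6+/+ tumours 1, 2 and 3. The groups did not overlap, and labelled P2ry6+/+ tumour 2 was again the highest of its group. The fold was 1.55, a difference of 0.63 ± 0.19 (SE, n = 3 each, 95% interval 0.19 to 1.07, limma adjusted p = 0.278). Across the 6 arrays S100a8 and S100a9 had a Pearson r of 0.99, given as a description of tumours that share a slide.

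The separation of the calprotectin genes depended on how the arrays were brought to 1 scale. With 75th percentile scaling, median centring or normexp background correction, 6 of the 12 probes kept the groups apart. The share of all probes with labelled P2ry6-/- tumours above was 12%, 9.65% and 15.6% in that order. With quantile normalization, in the authors' deposited value table or with no scaling, 4 of the 12 did, namely the 4 stefin A genes, against 11.4% of all probes with either of the first 2 and 2.91% with no scaling. Unscaled S100a8 signals were 83958, 104219 and 81438 in labelled P2ry6-/- tumours 1, 2 and 3, against 39520, 88872 and 38062 in labelled P2ry6+/+ tumours 1, 2 and 3. There, labelled P2ry6+/+ tumour 2 lay above 2 of the labelled P2ry6-/- tumours. Its 75th percentile was 368 signal units, the highest of the arrays, and those of the labelled P2ry6-/- arrays ran between 277 and 300.

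S100a7a, the mouse relative of human psoriasin, lies beside S100a8 and did not follow it. It read -0.40, -0.67 and -0.66 in labelled P2ry6-/- tumours 1, 2 and 3, against 0.17, -0.26 and -1.13 in labelled P2ry6+/+ tumours 1, 2 and 3. The groups overlapped, with a difference of -0.16 ± 0.33 (SE, n = 3 each, 95% interval -0.94 to 0.61, limma adjusted p = 0.873). Leaving out labelled P2ry6+/+ tumour 1 turned the difference to 0.12. Its r with S100a8 was -0.10.

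All 4 stefin A members had higher means in labelled P2ry6-/- tumours, with differences between 0.49 and 2.01, and in each of them the groups did not overlap. None passed the adjusted threshold. Stfa2l1 (chr16:36160118-36161876, a probe whose 1759-base span on the genome exceeds its 60 bases) read 5.90, 6.61 and 6.61 in labelled P2ry6-/- tumours 1, 2 and 3, against 3.51, 5.31 and 4.29 in labelled P2ry6+/+ tumours 1, 2 and 3. The lowest labelled P2ry6-/- tumour lay 0.60 above the highest labelled P2ry6+/+ tumour. The mean was 4.02-fold higher, a difference of 2.01 ± 0.45 (SE, n = 3 each, 95% interval 0.93 to 3.08, limma adjusted p = 0.193).

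Stfa2, whose start region is the closest to that of Stfa2l1, was read at chr16:36404032-36404089. It read 7.37, 8.04 and 8.17 in labelled P2ry6-/- tumours 1, 2 and 3, against 5.23, 7.01 and 6.08 in labelled P2ry6+/+ tumours 1, 2 and 3. Tumour 1 was the lowest in each group, and the groups lay 0.35 apart. The mean was 3.37-fold higher in labelled P2ry6-/- tumours (difference 1.75 ± 0.45, SE, n = 3 each, 95% interval 0.68 to 2.83, limma adjusted p = 0.231). Stfa2 and Stfa2l1 had an r of 1.00 across the 6 arrays.

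Stfa3 and Stfa1 varied little within the labelled P2ry6-/- group. Stfa3 (chr16:36450693-36450752) read 8.99, 9.04 and 8.97 in labelled P2ry6-/- tumours 1, 2 and 3, against 8.21, 8.47 and 8.20 in labelled P2ry6+/+ tumours 1, 2 and 3, a 1.63-fold higher mean. Its difference of 0.71 ± 0.15 (SE, n = 3 each, 95% interval 0.35 to 1.07) had the smallest limma adjusted p of the 12 probes, 0.186. Stfa1 (chr16:36285398-36285457) read 8.82, 8.78 and 8.89 in labelled P2ry6-/- tumours 1, 2 and 3, against 8.43, 8.05 and 8.53 in labelled P2ry6+/+ tumours 1, 2 and 3. Here labelled P2ry6+/+ tumour 2 was the lowest of its group, where in the other 3 stefin A genes it was the highest. The difference of Stfa1 was 0.49 ± 0.18 (SE, n = 3 each, 95% interval 0.07 to 0.91, limma adjusted p = 0.339), and its r with S100a8 was 0.42, beside 0.94 for Stfa3, 0.95 for Stfa2 and 0.96 for Stfa2l1.

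**Figure D2:**
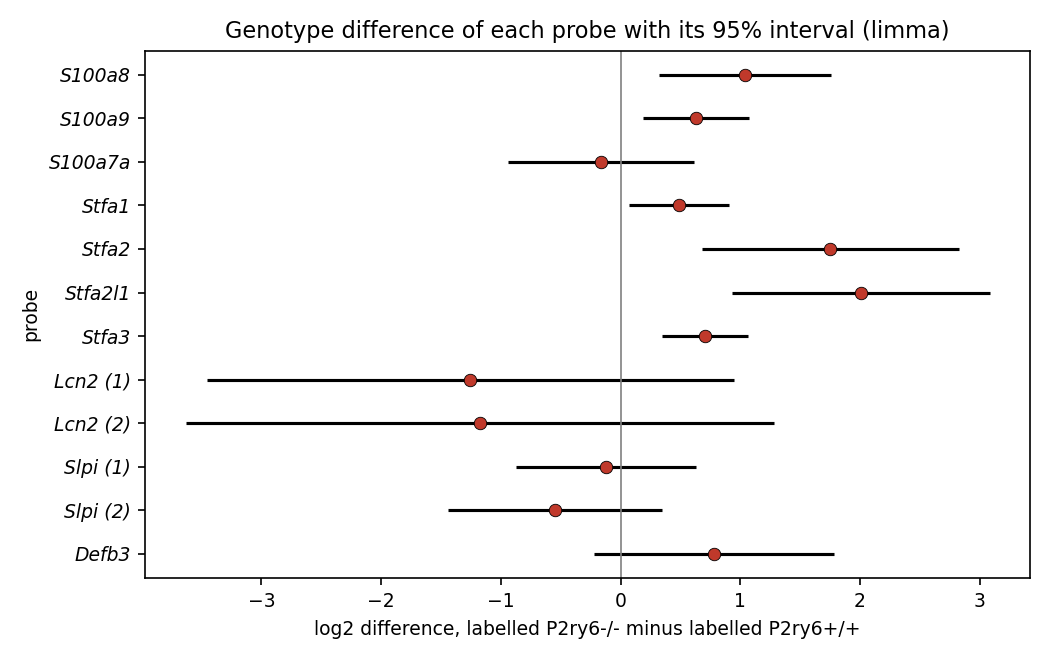
Difference between labelled P2ry6-/- and labelled P2ry6+/+ tumours for each of the 12 tested probes (horizontal axis, log2), with the 95% interval of the limma fit as a line. The intervals of S100a8, S100a9 and the 4 stefin A probes lie above 0, those of the other 6 probes include 0, and 0 of the 12 passed after adjustment.

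Stefin A genes are near copies, so a probe may also bind the transcript of a neighbour, which the files cannot resolve. Among the 4 member probes, the longest run of bases that a pair shared was 9, between Stfa1 and Stfa2, whose probes had 40 of 60 bases identical. The Stfa3 probe shared a run of 22 bases with that of Cstdc4 and 14 with that of Cstdc5. The longest run in the row was 25 bases, between the probes of the neighbours Csta2 and Cstdc5. These runs compare probes with probes and not with the neighbours' transcripts. They therefore do not bound how uncertain the values of single stefin A genes are.

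The other genes of the row on chromosome 16 were then read, a choice made after the members' values were seen. Between Csta1 and Stfa3 the RefSeq table lists 12 protein-coding genes, of which 10 had a probe and were tested. All 10 had a higher mean in labelled P2ry6-/- tumours, with a median difference of 1.08. In 9 of them the groups did not overlap, against 12.1% of 19894 genes read by their brightest probe. Of the 6 genes that are not members, 5 kept the groups apart, and these were Csta3 at 1.54, Cstdc6 at 1.27, Csta2 at 1.19, Cstdc4 at 0.97 and Cstdc5 at 0.35. Csta1, at the end of the row, differed by 0.41 with overlapping groups. The 10 genes share ancestry and possibly probe binding, so they are not independent of each other, and 0 of them passed the adjusted threshold.

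Beyond the row the same order was not the rule. Of 5 flanking genes tested, Fam162a kept labelled P2ry6-/- tumours above (0.46, an order found in 12.1% of genes). Ildr1 kept them below (-1.76, an order found in 7.33% of genes), and Wdr5b (0.08), Ccdc58 (-0.22) and Cd86 (0.25) overlapped. Ildr1 was dim, at -5.87, -4.73 and -6.00 in labelled P2ry6-/- tumours 1, 2 and 3, against -4.00, -3.44 and -3.88 in labelled P2ry6+/+ tumours 1, 2 and 3. At such levels the size of its difference is uncertain. Among 11 tested genes of the S100 row on chromosome 3, S100a8 and S100a9 had every labelled P2ry6-/- tumour above the labelled P2ry6+/+ tumours. That is 2 of 11, against 12.1% of genes. The 8 that are not members gave 0 such genes, which at that share is not read as a contrast. Their differences ran from -2.98 to 0.38. The lowest was S100a3, a gene of the hair cuticle, which read -0.39, -0.95 and -0.20 in labelled P2ry6-/- tumours 1, 2 and 3, against 2.49, 4.58 and 0.32 in labelled P2ry6+/+ tumours 1, 2 and 3.

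Lcn2 did not follow the calprotectin or stefin genes, and 1 tumour set its mean. Its brighter probe (A_55_P2070869, chr2:32240199-32240258) read 2.04, 3.50 and 2.66 in labelled P2ry6-/- tumours 1, 2 and 3, against 2.60, 6.25 and 3.11 in labelled P2ry6+/+ tumours 1, 2 and 3. Labelled P2ry6+/+ tumour 2 was 6.71-fold above the highest of the other 5 tumours, which overlapped. A second probe (A_51_P510156, chr2:32241037-32241281) gave the same order, with that tumour at 3.55 and 7.88-fold above the highest other. The differences were -1.25 ± 0.93 and -1.18 ± 1.04 (SE, n = 3 each, limma adjusted p = 0.625 and 0.683). Without labelled P2ry6+/+ tumour 2 they were -0.12 and 0.12. The brighter probe had an r of 0.12 with S100a8 and -0.81 with Stfa1.

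Neither tested Slpi probe separated the groups. The untested one read -6.19 to -5.98 in labelled P2ry6-/- tumours and -6.60 to -6.33 in labelled P2ry6+/+ tumours. It was well above background on 0 arrays, so that order is not read as a difference. The probe at chr2:164179849-164179908 read 9.67, 8.56 and 9.29 in labelled P2ry6-/- tumours 1, 2 and 3, against 9.65, 8.98 and 9.25 in labelled P2ry6+/+ tumours 1, 2 and 3. Its difference was -0.12 ± 0.32 (SE, n = 3 each, 95% interval -0.87 to 0.63, limma adjusted p = 0.905), and it turned to 0.18 without labelled P2ry6-/- tumour 2 and to 0.057 without labelled P2ry6+/+ tumour 1. A second Slpi probe (A_66_P112306) differed by -0.55 ± 0.38 (SE, n = 3 each, 95% interval -1.45 to 0.35, limma adjusted p = 0.595). Defb3 (chr8:19295274-19295333) read 0.94, 1.37 and 1.16 in labelled P2ry6-/- tumours 1, 2 and 3, against 1.20, 0.49 and -0.57 in labelled P2ry6+/+ tumours 1, 2 and 3. The groups overlapped through labelled P2ry6+/+ tumour 1, and the difference was 0.78 ± 0.42 (SE, n = 3 each, 95% interval -0.22 to 1.78, limma adjusted p = 0.499). It was 0.31 without labelled P2ry6+/+ tumour 3 and 1.20 without labelled P2ry6+/+ tumour 1.

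The spread within each group was described for the 12 tested probes. The SD over labelled P2ry6-/- tumours was smaller than that over labelled P2ry6+/+ tumours in 10 of the 12 probes, against 64.1% of all probes tested. Stfa3 had an SD of 0.036 in labelled P2ry6-/- tumours and 0.15 in labelled P2ry6+/+ tumours, and S100a9 had 0.039 and 0.29. Labelled P2ry6+/+ tumour 2 was the highest of its group in 7 of the 12, against 30.9% of all probes. Within slide column 1, which holds labelled P2ry6-/- tumours 1 and 2 and labelled P2ry6+/+ tumour 2, S100a8 differed by 0.37, S100a9 by 0.28 and Stfa2l1 by 0.95. In column 2, with labelled P2ry6-/- tumour 3 and labelled P2ry6+/+ tumours 1 and 3, they differed by 1.33, 0.81 and 2.71. In slide row 2, with labelled P2ry6-/- tumour 1 and labelled P2ry6+/+ tumour 3, they differed by 1.25, 0.78 and 1.62, and apart from that row an effect of row and of genotype cannot be told apart. The brighter Lcn2 probe differed by -3.48 in column 1 and by -0.20 in column 2.

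**Figure D3:**
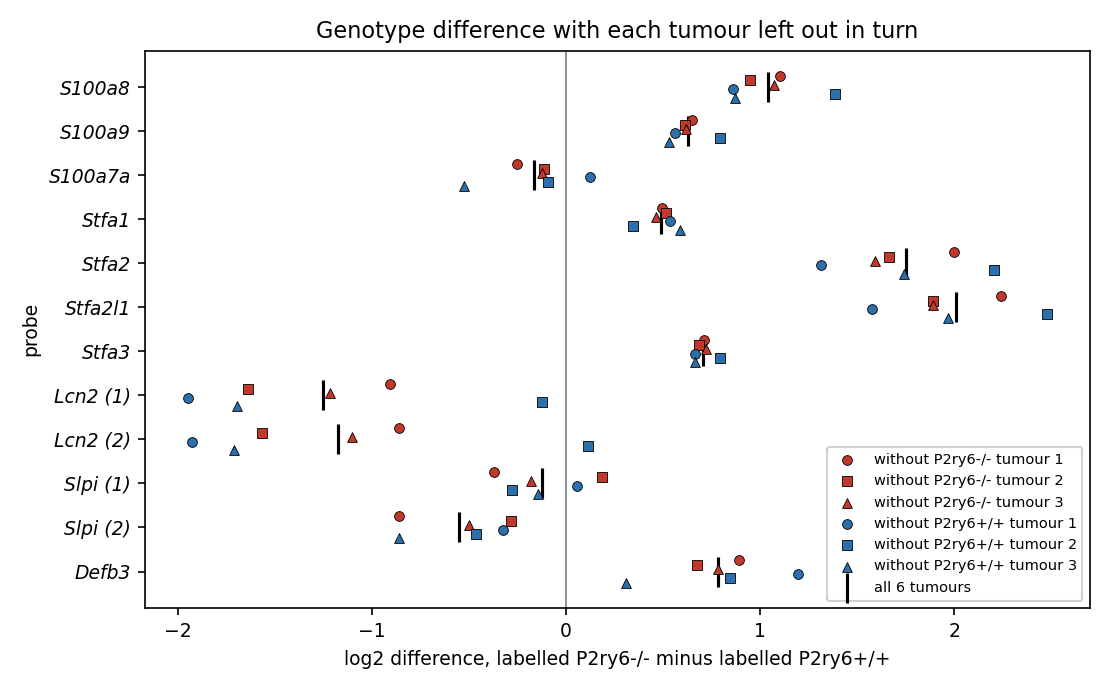
Difference between labelled P2ry6-/- and labelled P2ry6+/+ tumours (horizontal axis, log2) for each of the 12 tested probes with all 6 tumours (black bar) and with each tumour left out in turn (red for a labelled P2ry6-/- tumour left out, blue for a labelled P2ry6+/+ tumour). S100a8, S100a9, the 4 stefin A probes and Defb3 stay above 0 in every case, and the Lcn2 probes move to -0.12 and 0.12 without labelled P2ry6+/+ tumour 2.

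The inhibitors and proteases related to stefin A were counted next. Of 8 stefin and cystatin relatives tested, 7 had a higher mean in labelled P2ry6-/- tumours and 0 passed the adjusted threshold, against 0.166% of 19894 genes, with a median of 0.66. The 5 whose groups did not overlap are the stefin A neighbours named above. The relatives elsewhere differed by -0.12 to 0.08, with Cstb, the stefin B gene, at -0.12, Cst3, which encodes the secreted cystatin C, at 0.04, and Cst6, which encodes cystatin M/E of the cornified layer, at 0.08. Among 7 cathepsins, 6 had higher means, all overlapped, and 0 passed, with a median of 0.30 that was 0.00043 without labelled P2ry6+/+ tumour 3 and 0.50 without labelled P2ry6+/+ tumour 2. Ctsl, the cathepsin L gene of keratinocytes, differed by 0.57, Ctsh by 0.30, Ctss by 0.28 and Ctsb by 0.05.

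Among receptors, inducers and other antimicrobial genes, 0 passed the adjusted threshold. Of 8 receptor and adaptor genes, 6 had higher means, with Tlr4, a receptor for calprotectin, at 0.21 without overlap, Ager, the gene of RAGE, at 0.05, and the TLR4 partners Ly96 at 0.57 and Cd14 at 0.84. Slc22a17, described as an LCN2 receptor, read -0.49, 0.22 and -0.66 in labelled P2ry6-/- tumours 1, 2 and 3, against 0.64, 0.53 and 0.72 in labelled P2ry6+/+ tumours 1, 2 and 3. Tlr4 was the 1 of the 8 with every labelled P2ry6-/- tumour above, against 12.1% of genes. Slc22a17 was the 1 of the 8 with every such tumour below, against 7.33%. The cytokine genes Il17a, Il17f and Il22, which drive these alarmins in skin, were well above background on 0 arrays. Of 14 other inducers and transcription factors, 9 had higher means and 1, Nfkb1 at 0.65, had groups that did not overlap, against 12.1% of genes in that direction. Il1a differed by 0.75, Il1b by 0.73, Il6 by 0.54 and Il17ra by -0.09.

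Of 10 other antimicrobial genes, 6 had higher means, with a median of 0.17. The median turned to -0.25 without labelled P2ry6-/- tumour 1, to -0.067 without labelled P2ry6+/+ tumour 3 and to -0.14 with array weights, and was 0.011 without labelled P2ry6+/+ tumour 2. The beta-defensins went both ways, with Defb4 at 0.08, Defb14 at -0.53, Defb1 at 0.67 and Defb6 at -1.20. Of 10 other S100 genes, 5 had higher and 5 lower means, with a median of -0.04 that turned to 0.15 without labelled P2ry6+/+ tumour 2. In 2 of the 10, S100a3 and S100b, every labelled P2ry6-/- tumour lay below, against 7.33% of genes. S100b was well above background on 0 labelled P2ry6-/- arrays, and was tested only through the labelled P2ry6+/+ arrays. S100a4 differed by 0.38, S100a6 by 0.29, S100a10 by -0.29 and S100a11 by 0.40. Of 12 other genes of hyperproliferating keratinocytes, 7 had higher means, with a median of 0.16, and 0 passed. In 4 of the 12 every labelled P2ry6-/- tumour lay above every labelled P2ry6+/+ tumour, against 12.1% of genes, namely Serpinb3a at 0.94, Ivl, the involucrin gene of the cornified envelope, at 0.77, Krt16 and Krt6b. Krt17 had the opposite order, which 7.33% of genes had. The keratins that mark activated epidermis differed by -0.13 for Krt6a, 0.23 for Krt6b, 0.40 for Krt16 and -0.22 for Krt17.

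Markers of other cells moved beside these genes, and their part in the results was not tested. Of 16 neutrophil markers, 12 were tested, 10 had higher means in labelled P2ry6-/- tumours and 0 passed, with a median of 0.40. Their mean level was -0.53, 0.01 and 0.37 in labelled P2ry6-/- tumours 1, 2 and 3, against -0.53, -0.17 and -0.80 in labelled P2ry6+/+ tumours 1, 2 and 3. Labelled P2ry6-/- tumours 2 and 3 lay above every labelled P2ry6+/+ tumour in this mean, and labelled P2ry6-/- tumour 1 did not. The median was 0.67 without labelled P2ry6-/- tumour 1, 0.19 without labelled P2ry6-/- tumour 3 and 0.23 without labelled P2ry6+/+ tumour 3. Ly6g differed by 0.41, Cxcr2 by 0.46 and Csf3r by 0.27. Larger differences were those of Cebpe at 1.59, Mmp9 at 1.14 and Retnlg at 0.85, all with overlapping groups. The 2 tested markers with lower means were Camp at -0.87 and Elane at -0.07, also with overlap. Camp was well above background on 2 labelled P2ry6-/- arrays and 3 labelled P2ry6+/+ arrays, and so was tested only through the group where it is higher. Of the 4 untested markers, Ltf differed by -1.98, Prtn3 by -0.22, Fpr1 by 0.87 and Ngp by 0.18. Mpo, at 0.69, and Trem1, at 0.25, were the 2 of the 12 whose groups did not overlap, against 12.1% of genes in that direction. Mpo was well above background on 3 labelled P2ry6-/- arrays and 1 labelled P2ry6+/+ array. It was therefore tested only through the group where it is higher. Of the granule genes, Ngp and Prtn3 were well above background on 0 arrays, Ltf on 3, Mpo on 4, Camp on 5 and Elane on 6.

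The mean of 10 keratinocyte markers was 7.36 to 7.44 in labelled P2ry6-/- tumours and 7.09 to 7.17 in labelled P2ry6+/+ tumours, 9 of the 10 had higher means, and 0 passed. Their median difference was 0.13 and turned to -0.10 with no scaling. The differences ran up to 0.97 for Krt1, with overlap. Col17a1 at 0.64 and Krt10 at 0.56 kept the groups apart, 2 of the 10 against 12.1% of genes. Most markers of deeper tissue had lower means. All 8 skeletal muscle markers kept labelled P2ry6-/- tumours below, against 7.33% of genes. Of the 8, 1 passed the threshold, against 0.166% of genes. The muscle list's mean was -4.19 to -3.76 in labelled P2ry6-/- tumours and -0.42 to 3.74 in labelled P2ry6+/+ tumours. Of 7 fat cell markers 6 had lower means and 3 passed, against 0.166% of genes. In 5 of the 7 every labelled P2ry6-/- tumour lay below, against 7.33%. Lep, at 0.37, kept labelled P2ry6-/- tumours above by a gap of 0.0054, an order found in 12.1% of genes. The fat cell list's mean was -2.31 to -1.96 in labelled P2ry6-/- tumours and 1.20 to 2.37 in labelled P2ry6+/+ tumours. Myh4, the muscle marker that passed, and Adipoq, Cfd and Car3, the fat cell markers that passed, were well above background on 0 labelled P2ry6-/- arrays. They were tested only through the labelled P2ry6+/+ arrays, where they are higher. The same holds for Ckm, Tnnc2 and Myl1 among the muscle markers, so the order of all these markers was partly set by the filter. The other muscle markers, Acta1, Tnnt3, Mylpf and Atp2a1, were well above background on all 6 arrays. Of 8 hair follicle markers, 7 had lower means in labelled P2ry6-/- tumours, with a median of -3.65 and 0 past the threshold. Restricted to probes that were well above background in all 6 tumours, the median was -0.059 for hair follicle markers and -0.55 for fat cell markers, against -4.34 for fat cell markers without that restriction. This drops Krt71, Krt25, Krt27 and Krt35 among hair follicle markers and Adipoq, Cfd, Cidec and Car3 among fat cell markers. Each was well above background on 3 labelled P2ry6+/+ arrays but on fewer labelled P2ry6-/- arrays. The restriction thus removes genes low in that group, and the smaller medians cannot be read as a smaller difference. Macrophage markers had a median of 0.02 over 8 genes, which turned to -0.20 without labelled P2ry6+/+ tumour 3, and T cell markers 0.22 over 3, with 0 past the threshold in either.

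Among 3547 genes that were bright and varied enough, the 5 whose pattern over the 6 arrays was most like the mean of S100a8 and S100a9 were 9530059O14Rik, Ucn2, Gjb6, Wdr62 and Lat2, with Pearson r between 0.985 and 0.998. They were picked as the highest of many. 9530059O14Rik read 1.66, 2.01 and 1.87 in labelled P2ry6-/- tumours 1, 2 and 3, against -0.26, 1.28 and -0.12 in labelled P2ry6+/+ tumours 1, 2 and 3, and so shared the single raised labelled P2ry6+/+ tumour. Gjb6, which encodes the gap junction protein connexin 30 of the epidermis, read 0.64, 0.66 and 0.62 in labelled P2ry6-/- tumours 1, 2 and 3, against -0.52, 0.30 and -0.43 in labelled P2ry6+/+ tumours 1, 2 and 3. The other 3 showed the same order, with labelled P2ry6+/+ tumour 2 the highest of its group.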

How the data were processed

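Per the file headers, the authors' array files hold linear spot intensity, with a processed signal already corrected for background. The submitters' processing notes name Agilent Feature Extraction 10.7.1.1. A second deposited table gives log2 values with column medians of 4.969, and the labels name no tool for it; its scale and direction followed the arrays' own signals and its genes were not centred. The arrays held 59305 non-control spots each, with 68 to 184 outlier flags (left out) and 0 saturated spots.

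Spots of a probe were averaged as log2 processed signal, and each array's 75th percentile over 56605 probes was subtracted. Tested probes were those well above background on all 3 arrays of either genotype. Genotypes were compared with limma 3.58.1 (lmFit, eBayes, R 4.3.3), without blocks, two-sided, with Benjamini-Hochberg adjustment over all tested probes at 0.05. The fit was tested on simulated data. Gene counts use each gene's brightest probe. The alternatives were 18 settings, including normexp (offset 50), quantile, median and no scaling, dim-probe filters, blocks and each tumour left out.

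The members and lists were chosen with earlier results of these data known. Genes named from the pathway lists were the first 4 measured, from the marker lists up to 3, and the 5 most like S100a8 and S100a9 (SD at least 0.5). Other genes were chosen after their values were seen. Among them were Slc22a17, Nfkb1, S100a3, S100b, Ivl, Serpinb3a, the neighbours and the further neutrophil, keratinocyte, muscle, hair and fat markers. Start regions and gene order came from RefSeq tables of GRCm38.p6, aligned with mafft 7.526, and no genome was used. The number of arrays limits the precision.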

Additional observations from a re-analysis of the deposited data

How the results depend on the processing

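Across the 18 alternatives, S100a8, S100a9, the 4 stefin A probes and Defb3 kept a positive difference. The median difference of the 12 probes ran from 0.32, with no scaling (chosen after seeing the data), to 0.57, without labelled P2ry6-/- replicate 1. With only the brightest probe of each gene, and so fewer member probes, it was 0.67. The number of member probes past the threshold was 0 in each alternative except without labelled P2ry6+/+ replicate 2, where it was 1, S100a8, so leaving out 1 tumour gave 0 to 1. Of all probes tested, 43 passed. That count was 15 with normexp, 22 without the filter for dim probes, 6 when a probe had to be bright in each of the 6 tumours, 73 when arrays were weighted, and 13 to 178 when 1 tumour was left out (26, 20 and 13 without labelled P2ry6-/- replicates 1, 2 and 3, and 178 without labelled P2ry6+/+ replicate 2). With the replicate number as a block it was 6. Same-numbered tumours deviated together with r of 0.096, 0.245 and 0.143, and each tumour correlated best with its own number, but 1 pair stayed under 0.1 and no label ties the numbers, so the pairing was not used. Signs turned for the second Lcn2 probe without labelled P2ry6+/+ replicate 2 (0.12, range with 1 tumour left out -1.93 to 0.12), for S100a7a without labelled P2ry6+/+ replicate 1 (0.12, range -0.53 to 0.12), for the brighter Slpi probe without labelled P2ry6-/- replicate 2 (0.18) or labelled P2ry6+/+ replicate 1 (0.057, range -0.37 to 0.18), and, with no scaling, for the medians of the T cell (-0.010), keratinocyte (-0.10), hyperproliferation (-0.075), receptor (-0.0093), inducer (-0.0062), antimicrobial (-0.061) and macrophage (-0.21) lists. The antimicrobial list also turned without labelled P2ry6-/- replicate 1 (-0.25), without labelled P2ry6+/+ replicate 3 (-0.067) and with array weights (-0.14). The macrophage list turned without labelled P2ry6+/+ replicate 3 (-0.20), with array weights (-0.049) and with median centring (-0.022). The other S100 list turned without labelled P2ry6+/+ replicate 2 (0.15), without labelled P2ry6-/- replicate 3 (0.041) and with the stricter filter for dim probes (0.043), which drops S100b. The stefin relative, cathepsin, neutrophil, muscle, fat and hair lists kept their sign. Under the stricter filter the fat and hair medians shrank to -0.55 and -0.059, because it drops markers that are dim in labelled P2ry6-/- tumours. Under normexp they shrank to -2.64 and -2.63. The median of all probes moved to 0.18 with no filter and to -0.21 with no scaling. The causes were not tested. Arrays carry no read depth, and the number of tumours limits what these tests can call.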
